A study of Mus musculus with 10 samples.

Results

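The 10 genes described here are listed as genes of smooth muscle cells, of pericytes and of soluble guanylate cyclase. All 10 were found by symbol among the 55385 genes of the count table. The contractile genes were Myh11, Acta2, Tagln, Cnn1 and Smtn, the mural genes were Rgs5, Pdgfrb and Cspg4, and the guanylate cyclase genes were Gucy1a1 and Gucy1b1. The question was whether their RNA differed between 5 libraries labelled IL6 shRNA1 and 5 libraries labelled control shRNA. Every library came from one mouse ovarian tumour line, titled APV245 on the samples but spelled APC245 in the design text, that was derived from a tumour mutated in Arid1a and Pik3ca, so both groups carry those mutations. The IL6 shRNA1 libraries came from cells given a single short hairpin RNA against Il6 (genotype label, IL6 knockdown), and the control libraries from cells given a non-mammalian hairpin in pLKO.1-puro. The labels give no further treatment and 1 batch, and they do not say whether each transduced line was a clone or a pool. The sample labels describe cells grown in DMEM with serum, whereas the design text describes subcutaneous tumours; no animal age is given. No label ties the replicates to separate animals or cultures. The p-values therefore measure the spread between these libraries, which may not be that between animals or cultures.

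Smooth muscle cells and pericytes, together called mural cells, wrap the endothelium of blood vessels. Contraction runs on smooth muscle myosin (Myh11) and smooth muscle actin (Acta2), and the thin-filament proteins transgelin (Tagln), calponin (Cnn1) and smoothelin (Smtn) accompany them in contractile cells. Many of these genes are driven by serum response factor and myocardin through a DNA element called the CArG box. Soluble guanylate cyclase is a heterodimer of an alpha and a beta subunit that makes the second messenger cGMP when nitric oxide binds its haem. The cGMP then relaxes smooth muscle through cGMP-dependent protein kinase.

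The promoter sequences of the 2 guanylate cyclase genes and of Acta2 are printed because those genes gave the lowest fold changes and the highest level among the 10. Each run is the 250 bases before the RefSeq start, on GRCm38.p6, written 5′ to 3′ on the gene's own strand, which is minus for all 3. The windows are chr3:82145651-82145900 for Gucy1a1 (the first of 2 starts that RefSeq gives), chr3:82074712-82074961 for Gucy1b1 and chr19:34255374-34255623 for Acta2. Capitals mark CArG-like windows, meaning CC, 6 bases of which at most 1 was not A or T, and GG.
Gucy1a1: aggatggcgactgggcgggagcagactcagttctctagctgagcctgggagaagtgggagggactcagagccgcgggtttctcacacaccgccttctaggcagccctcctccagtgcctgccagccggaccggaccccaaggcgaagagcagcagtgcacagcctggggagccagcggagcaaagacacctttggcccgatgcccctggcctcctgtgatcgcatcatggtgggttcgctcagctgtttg
Gucy1b1: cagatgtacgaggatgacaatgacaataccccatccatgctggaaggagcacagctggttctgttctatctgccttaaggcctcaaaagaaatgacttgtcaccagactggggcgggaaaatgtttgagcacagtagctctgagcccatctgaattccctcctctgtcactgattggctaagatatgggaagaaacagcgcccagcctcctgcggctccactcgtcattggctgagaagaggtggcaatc
Acta2: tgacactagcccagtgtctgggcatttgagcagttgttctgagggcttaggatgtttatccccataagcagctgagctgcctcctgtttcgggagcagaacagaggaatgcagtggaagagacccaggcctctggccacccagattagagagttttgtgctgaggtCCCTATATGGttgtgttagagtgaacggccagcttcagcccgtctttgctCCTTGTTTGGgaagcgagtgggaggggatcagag
The motif was searched on both strands, which its symmetry makes the same search. Acta2 held 2 such windows, CCCTATATGG at 84 to 75 bases and CCTTGTTTGG at 34 to 25 bases before the start, each with 1 base other than A or T. Neither guanylate cyclase gene held one in its window, nor did the second Gucy1a1 start, Cnn1, Smtn, Rgs5 or Cspg4, the other members whose promoters were kept. No promoter entry was found by symbol for Myh11 or Tagln, so these contractile genes were not searched. Of 32851 mouse promoter windows of the same length, 8.59% held a CArG-like window and 1.47% held one with only A or T inside. The GC content was 64.0% for Gucy1a1, 51.2% for Gucy1b1 and 53.6% for Acta2, beside a median of 52.4% over all windows.

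The libraries held 17905397 to 19934278 counts in the IL6 shRNA1 group and 18224751 to 22682346 in the control group. The targeted gene, Il6, encoding the cytokine interleukin 6, was not called lower. It averaged 1.73 ± 0.41 CPM (counts per 1000000 counts, scaled by TMM factors) in the IL6 shRNA1 libraries as labelled and 1.26 ± 0.64 CPM in control libraries (SD, n = 5 each; log2 fold change 0.44 ± 0.36 SE, edgeR adjusted p = 0.436). All directions below are therefore those of the labels. The tumour line is labelled as tumour cells, yet markers of other cells were present. The 16 leukocyte markers summed to 2827 to 5644 CPM (median 4488) in the libraries labelled IL6 shRNA1 and to 1036 to 2916 CPM (median 1780) in control libraries. Of the 15 tested markers 7 were called higher (5.62% over all genes tested), 0 lower and 8 not called. That count was 0 without IL6 shRNA1 library 2, 3, 4 or 5 or control library 5 alone, 2 and 4 without control library 4 or 2, 0 without IL6 shRNA1 library 5 and control libraries 2 and 5 together, 0 without a filter on low counts and 2 with library totals only; DESeq2 called 10 and limma voom 7. The 12 endothelial markers summed to 336.6 to 686.6 CPM (median 426.3) in IL6 shRNA1 libraries and 265.4 to 398.1 CPM (median 351.5) in control libraries. Of these, edgeR called 0 of 12, with 7 at an unadjusted p under 0.05 and all 12 fold changes positive, while DESeq2 called 4 and limma voom 0, and edgeR called 3 without IL6 shRNA1 library 1 and 1 without control library 3. Skeletal muscle markers ranged from 67.66 to 10480 CPM (median 1604) in the libraries labelled IL6 shRNA1 and from 30.61 to 1144 CPM (median 221.9) in control libraries, where edgeR called 0 of 11 (7 at an unadjusted p under 0.05; 2 called without IL6 shRNA1 library 1), DESeq2 4 and limma voom 0. Epithelial and mesothelial markers summed to 485 to 576.3 CPM in IL6 shRNA1 libraries and 192.1 to 482.6 CPM in control libraries. Of these, 1 of 11 was called higher (5.62% over all genes tested). That count was 0 without IL6 shRNA1 library 2, 3, 4 or 5 or control library 2, 3 or 4, 3 without control library 1, and 0 with library totals only or without a filter on low counts; DESeq2 called 4 and limma voom 2. IL6 shRNA1 library 5 and control libraries 2 and 5 lay farthest out on the first principal component, which held 53.8% of the variance.

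Across the 10 genes, 2 were higher in the libraries labelled IL6 shRNA1 (Myh11 and Tagln), 2 were lower (Gucy1a1 and Gucy1b1) and 6 were not called, where called means a Benjamini-Hochberg adjusted p under 0.05 over the 15064 genes tested. Over all genes tested, 11.8% were called, 5.62% higher and 6.16% lower. The guanylate cyclase genes had the lowest log2 fold changes of the 10 and the contractile genes Myh11 and Tagln the highest. The median log2 fold change was -0.03 over the 10 genes and -0.01 over all genes. For 3 of the 10 (Myh11, Gucy1a1 and Gucy1b1) the highest library of one group lay below the lowest of the other, Myh11 with IL6 shRNA1 above (4.81% of all genes tested) and the guanylate cyclase genes with it below (6.13%), 10.9% together. All 10 genes passed the filter on low counts. Without IL6 shRNA1 library 5 and control libraries 2 and 5, 1 of the 10 was called (Gucy1b1).

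**Figure D1:**
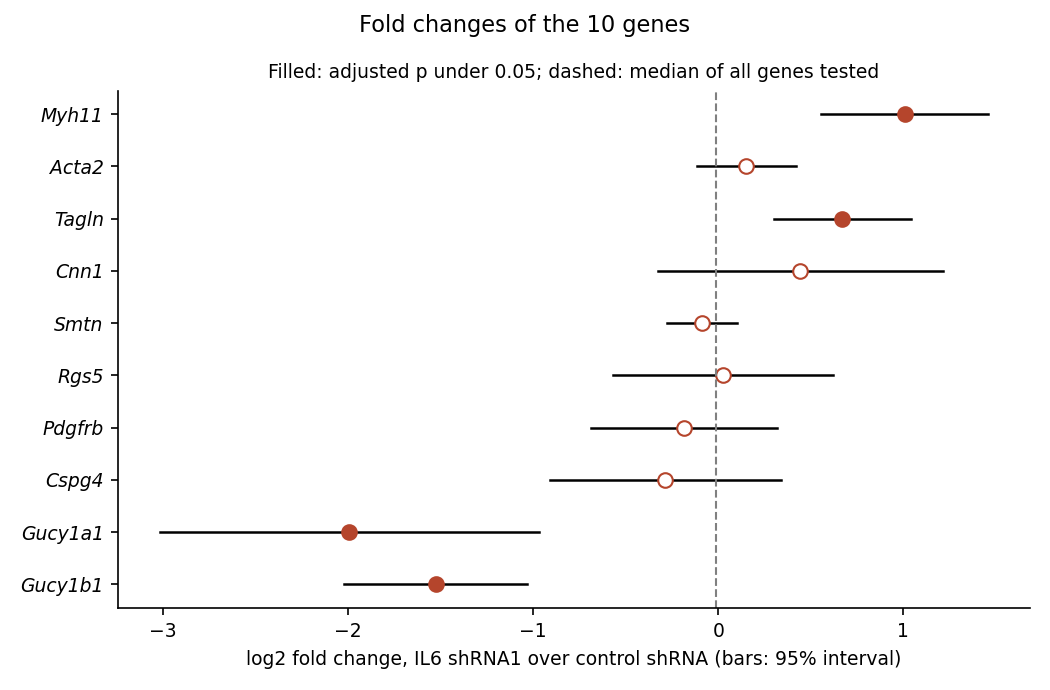
Fitted log2 fold change, libraries labelled IL6 shRNA1 over control shRNA libraries, of each of the 10 genes, with its 95% interval (bars) and the median of all genes tested (dashed line); filled points had an adjusted p under 0.05. Gucy1a1 at -1.99 and Gucy1b1 at -1.53 lie to the left, Myh11 at 1.01 and Tagln at 0.67 to the right, and the intervals of the other 6 include 0.

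Soluble guanylate cyclase was the group with the lowest levels relative to control. Gucy1a1, the alpha subunit, averaged 9.59 ± 6.96 CPM in the libraries labelled IL6 shRNA1 and 38.1 ± 15.8 CPM in control libraries, a fold of 0.251. Gucy1b1, the beta subunit that carries the haem, averaged 3.29 ± 0.97 CPM in IL6 shRNA1 libraries and 9.49 ± 2.13 CPM in control libraries, a fold of 0.347 (SD, n = 5 each). Each was called lower and each was more than 2-fold lower, which held for 0.87% of all genes tested.

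Gucy1a1 (ENSMUSG00000033910.13, GRCm38 chromosome 3, 82092427 to 82145789, minus strand) had 21.5, 9.09, 4.70, 4.67 and 7.94 CPM in IL6 shRNA1 libraries 1 to 5. In control libraries 1 to 5 it had 32.8, 50.9, 26.7, 21.8 and 58.4 CPM. The groups did not overlap, but IL6 shRNA1 library 1 at 21.5 CPM lay just under control library 4 at 21.8 CPM, while the other 4 IL6 shRNA1 libraries lay at or below 9.09 CPM. The log2 fold change was -1.99 ± 0.46 SE (95% interval -3.02 to -0.97, adjusted p = 0.0246), from 86 to 1046 counts per library. Leaving out any of 5 libraries in turn put the adjusted p above the threshold: 0.056, 0.0523 and 0.0549 without IL6 shRNA1 library 2, 3 or 5, and 0.0573 and 0.0623 without control library 2 or 5, at log2 fold changes between -1.97 and -1.79.

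Gucy1b1 (ENSMUSG00000028005.13, chromosome 3, 82032006 to 82074689, minus strand) had 4.76, 2.12, 3.00, 3.02 and 3.55 CPM in IL6 shRNA1 libraries 1 to 5. It had 7.76, 12.2, 7.69, 8.43 and 11.4 CPM in control libraries 1 to 5. Every IL6 shRNA1 library lay below every control library. The log2 fold change was -1.53 ± 0.22 SE (95% interval -2.02 to -1.04, adjusted p = 0.00339), from 43 to 250 counts per library. Its call held without any single library, with log2 fold changes from -1.68 to -1.39 and adjusted p from 0.00223 to 0.0118. In bulk RNA, fewer cells of a type and less RNA per cell cannot be told apart.

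The pair lies on one strand of chromosome 3, 17737 bases apart, with 0 genes of the table between them. The nearest tested gene on the Gucy1b1 side was Ctso, a lysosomal cysteine protease, which was higher, with 37.0 ± 2.33 CPM under the IL6 shRNA1 label and 26.0 ± 4.25 CPM under the control label (log2 fold change 0.51 ± 0.11 SE, adjusted p = 0.0158). On the Gucy1a1 side, Map9 was not called at 0.871 ± 0.437 CPM in IL6 shRNA1 libraries and 1.32 ± 0.305 CPM in control libraries (adjusted p = 0.279). Beyond these, Glrb, Pdgfc, Npy2r and Plrg1 were not called, with log2 fold changes of -0.85, -0.05, 0.29 and -0.04. The 758 tested genes of chromosome 3 had a median log2 fold change of 0.02.

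The guanylate cyclase levels were also set, within each library, against Pdgfrb, a mural gene that is also found on fibroblasts. The log2 ratio of Gucy1a1 to Pdgfrb averaged -4.75 ± 0.69 in the libraries labelled IL6 shRNA1 and -2.76 ± 0.31 in control libraries, a difference of -1.99 (SD, n = 5 each; exact two-sided permutation test over 252 splits, p = 0.00794, adjusted p = 0.0317 over 8 ratios). For Gucy1b1 to Pdgfrb the ratio averaged -6.08 ± 0.31 in IL6 shRNA1 libraries and -4.69 ± 0.28 in control libraries, a difference of -1.39 with the same exact p, the smallest this design can give. So the guanylate cyclase genes differed from control relative to Pdgfrb as well as relative to the library total. Pdgfrb itself was not called between the groups, so these ratios carry mostly the same cyclase differences and are not separate support. With 4 control libraries the exact test gave an adjusted p of 0.0635 for each ratio without control library 2, 3, 4 or 5. The ratio of Gucy1a1 to Gucy1b1 did not pass. It was 4.49, 4.21, 1.55, 1.54 and 2.22 in IL6 shRNA1 libraries 1 to 5 and 4.21, 4.17, 3.46, 2.57 and 5.11 in control libraries 1 to 5 (difference in log2 ratio -0.60, exact p = 0.159, adjusted p = 0.317).

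Both guanylate cyclase results were weaker in fits that addressed the other cells and the outlying libraries. With a leukocyte score as a covariate, the log2 fold change was -1.19 for Gucy1a1 (adjusted p = 0.402) and -1.03 for Gucy1b1 (adjusted p = 0.1). The score itself differed between the groups, so that fit gives up part of the comparison. Without IL6 shRNA1 library 5 and control libraries 2 and 5, the values were -1.44 (adjusted p = 0.234) for Gucy1a1 and -1.30 (adjusted p = 0.0471) for Gucy1b1. Without a filter on low counts Gucy1a1 had an adjusted p of 0.0698.

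**Figure D2:**
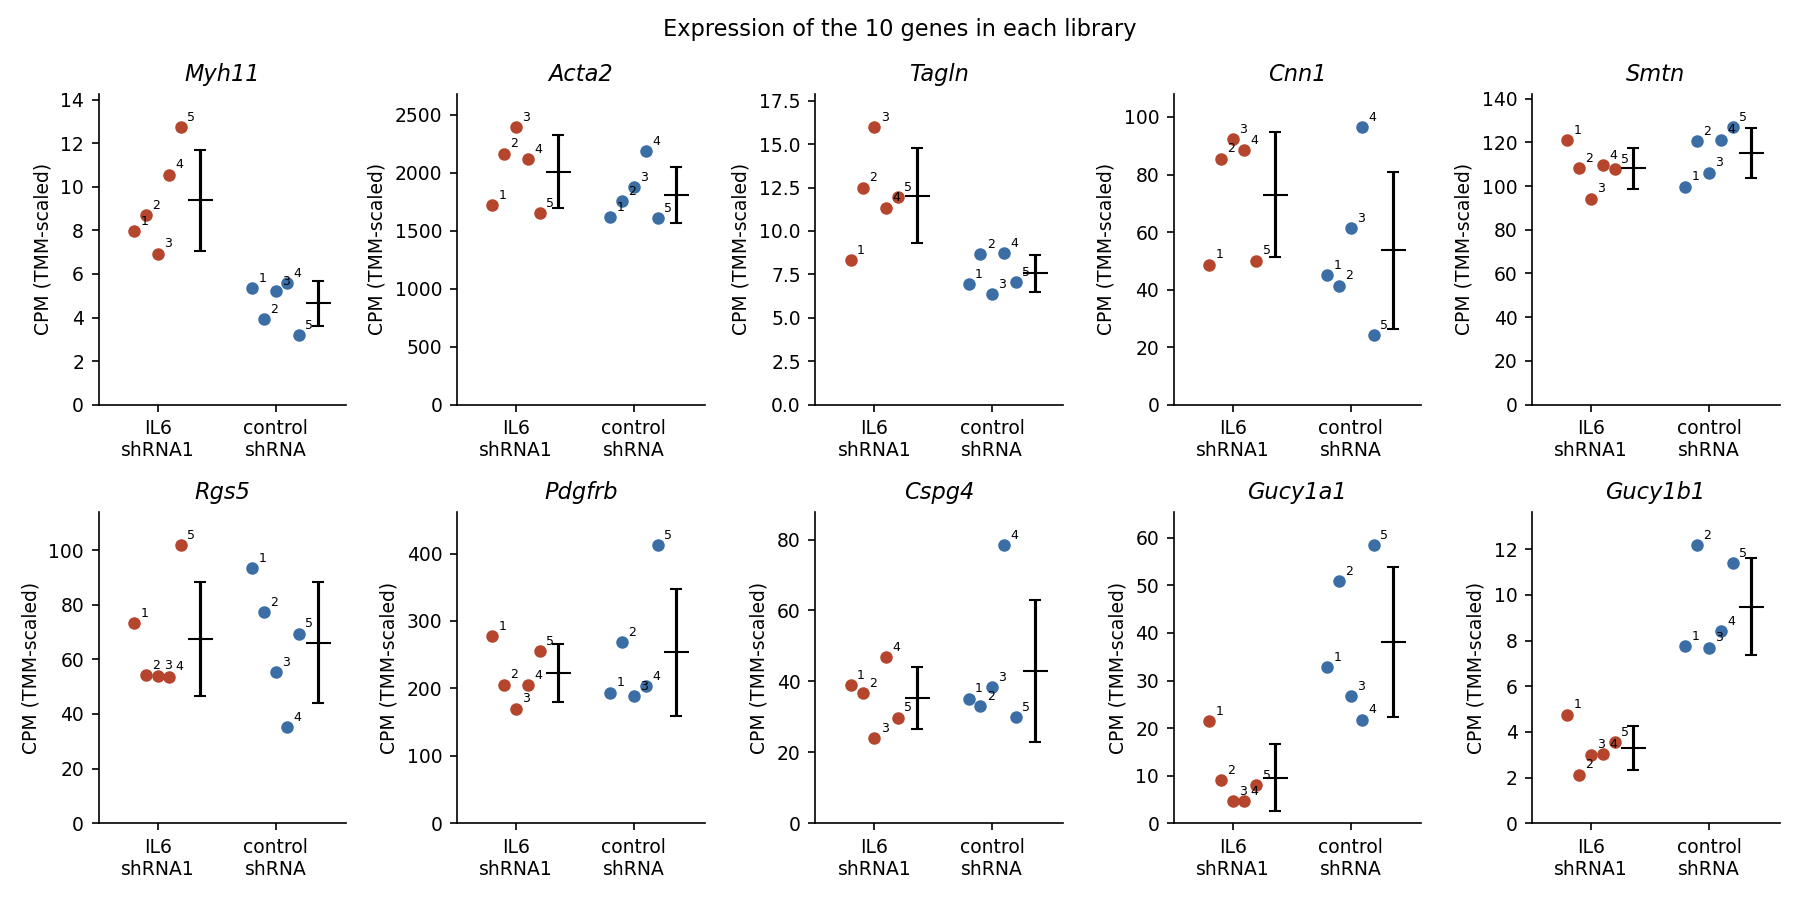
CPM (scaled by TMM factors) of each of the 10 genes in every library, with libraries labelled IL6 shRNA1 left of control shRNA libraries; points carry the library number and black bars show mean ± SD over 5 libraries. The groups do not overlap for Myh11, Gucy1a1 and Gucy1b1, and Gucy1a1 in IL6 shRNA1 library 1, at 21.5 CPM, stands above the other libraries of its group.

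Among the contractile genes, 2 of 5 were higher (Myh11 and Tagln), 0 were lower and 3 were not called, beside 5.62% called higher over all genes tested. The median log2 fold change of the 5 was 0.44. The summed CPM of the 5 genes was nearly all Acta2 and ranged from 1838 to 2606 (median 2337) in the libraries labelled IL6 shRNA1 and from 1768 to 2422 (median 1931) in control libraries. The called pair were the contractile genes with the lowest FPKM, a level scaled for gene length and library total. The Tagln level is uncertain, for the exon overlap given below.

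Myh11 (ENSMUSG00000018830.10, chromosome 16, 14194535 to 14291372, minus strand), the smooth muscle myosin heavy chain, had 7.96, 8.69, 6.93, 10.6 and 12.8 CPM in IL6 shRNA1 libraries 1 to 5. Control libraries 1 to 5 had 5.35, 3.94, 5.20, 5.59 and 3.20 CPM. Every IL6 shRNA1 library lay above every control library. The mean was 9.38 ± 2.31 CPM in IL6 shRNA1 libraries and 4.66 ± 1.03 CPM in control libraries, a log2 fold change of 1.01 ± 0.21 SE (95% interval 0.56 to 1.46, adjusted p = 0.0134), from 54 to 241 counts per library. The call held without any single library (0.88 to 1.11, adjusted p from 0.0122 to 0.0386). Without IL6 shRNA1 library 5 and control libraries 2 and 5 together the value was 0.67 (adjusted p = 0.103), and 0.66 once a leukocyte score entered as covariate (adjusted p = 0.368).

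Tagln (ENSMUSG00000032085.5, chromosome 9, 45929619 to 45936058, minus strand), which encodes transgelin, had 8.34, 12.50, 15.997, 11.34 and 11.96 CPM in IL6 shRNA1 libraries 1 to 5. It had 6.96, 8.67, 6.36, 8.74 and 7.06 CPM in control libraries 1 to 5. The groups overlapped through IL6 shRNA1 library 1, which lay below control libraries 2 and 4. It averaged 12.03 ± 2.74 CPM in IL6 shRNA1 libraries and 7.56 ± 1.08 CPM in control libraries, a log2 fold change of 0.67 ± 0.17 SE (95% interval 0.30 to 1.04, adjusted p = 0.0289). The adjusted p was 0.0669, 0.0632 and 0.0582 without IL6 shRNA1 library 2, 3 or 5 in turn, 0.0601 and 0.0703 without control library 3 or 5, and 0.161 without IL6 shRNA1 library 5 and control libraries 2 and 5 together. In the annotation, 1349 of the 1988 exonic bases of Tagln (67.9%) lie opposite exons of Pcsk7 or of the antisense gene Gm48529. Whether counting used strand is not given in the sources used here, so the Tagln level is uncertain. The part of this overlap in the result was not tested.

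Acta2 (ENSMUSG00000035783.9, chromosome 19, 34241090 to 34255590, minus strand), the smooth muscle actin, had 1720, 2166, 2396, 2117 and 1655 CPM in IL6 shRNA1 libraries 1 to 5. Control libraries 1 to 5 had 1618, 1756, 1879, 2190 and 1607 CPM. The groups overlapped across most of their range, with means of 2011 ± 314 CPM under IL6 shRNA1 and 1810 ± 240 CPM under control shRNA. The log2 fold change was 0.15 ± 0.12 SE (95% interval -0.12 to 0.42, adjusted p = 0.426), so that interval leaves out a change as large as that of Myh11. Actin genes are close copies of one another, and how reads matching several of them were counted is not given in the sources used here. On chromosome 19, where Acta2 lies, the 546 tested genes had a median log2 fold change of -0.12 and 11.9% were called lower. The part of this in the Acta2 value was not tested.

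Cnn1 (ENSMUSG00000001349.5, chromosome 9, 22099216 to 22109630, plus strand), calponin 1, had 48.7, 85.5, 92.3, 88.6 and 50.1 CPM in IL6 shRNA1 libraries 1 to 5. It had 44.9, 41.4, 61.3, 96.6 and 24.2 CPM in control libraries 1 to 5. Its spread within a group was wider than the difference between groups (log2 fold change 0.44 ± 0.35 SE, 95% interval -0.33 to 1.21, adjusted p = 0.415). Smtn (ENSMUSG00000020439.17, chromosome 11, 3517523 to 3540612, minus strand), smoothelin, had 120.8, 108.2, 94.2, 109.5 and 107.8 CPM in IL6 shRNA1 libraries 1 to 5. It had 99.7, 120.6, 106.1, 121.3 and 127.1 CPM in control libraries 1 to 5. The Smtn groups overlapped and had the narrowest interval of the 10 genes (log2 fold change -0.09 ± 0.09 SE, 95% interval -0.28 to 0.10, adjusted p = 0.518). Of the exonic bases of Smtn, 16.3% lie opposite exons of Gm11946 and Gm11947, whose highest counts in any library were 17 and 0.

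Myh11 was higher on average relative to Acta2, as a ratio taken within each library. Acta2 itself was not called between the groups, so this ratio carries mostly the same Myh11 difference and is not separate support. The log2 ratio averaged -7.75 ± 0.51 in the libraries labelled IL6 shRNA1 and -8.61 ± 0.27 in control libraries, a difference of 0.85 (SD, n = 5 each; exact two-sided permutation test, p = 0.0159, adjusted p = 0.0423). The mean proportion of Myh11 to Acta2 thus differed between the groups over all 10 libraries, but single libraries overlapped. The log2 ratio was -8.42 in IL6 shRNA1 library 3 and -8.23 in control library 1. The adjusted p of the exact test was 0.0635 and 0.0847 without IL6 shRNA1 library 4 or 5, and 0.0847, 0.0635, 0.0847 and 0.0847 without control library 2, 3, 4 or 5.

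None of the 3 mural genes was called by edgeR, DESeq2 or limma voom, and 0 had an unadjusted p under 0.05: Rgs5, Pdgfrb and Cspg4 had a median log2 fold change of -0.19, and their groups overlapped. Rgs5 (ENSMUSG00000026678.10, chromosome 1, 169655501 to 169695813, plus strand), a regulator of G protein signalling found in pericytes, had 73.2, 54.2, 54.1, 53.7 and 101.7 CPM in IL6 shRNA1 libraries 1 to 5. Control libraries 1 to 5 had 93.3, 77.3, 55.4, 35.2 and 69.4 CPM. The highest library was in the IL6 shRNA1 group and the lowest in the control group, and the log2 fold change was 0.03 ± 0.27 SE (95% interval -0.57 to 0.62, adjusted p = 0.96). Its sign turned without IL6 shRNA1 library 5 or control library 3 or 4. On chromosome 1, where Rgs5 lies, the 917 tested genes had a median log2 fold change of 0.32 and 29.2% of them were called higher, and the part of this in the Rgs5 value was not tested.

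Pdgfrb (ENSMUSG00000024620.11, chromosome 18, 61045150 to 61085061, plus strand), the receptor for platelet-derived growth factor B on pericytes and also on fibroblasts, had 277, 206, 170, 205 and 255 CPM in IL6 shRNA1 libraries 1 to 5. It had 194, 268, 189, 203 and 412 CPM in control libraries 1 to 5. Control library 5 stood highest, and the other control libraries lay within the IL6 shRNA1 range (log2 fold change -0.19 ± 0.23 SE, 95% interval -0.69 to 0.32, adjusted p = 0.617; 0.07 without control library 5). Cspg4 (ENSMUSG00000032911.6, chromosome 9, 56865033 to 56899870, plus strand), the NG2 proteoglycan of pericytes, had 38.9, 36.6, 24.0, 46.8 and 29.8 CPM in IL6 shRNA1 libraries 1 to 5. It had 35.1, 33.0, 38.4, 78.4 and 30.0 CPM in control libraries 1 to 5. Control library 4 stood apart, and without it the log2 fold change was 0.04 rather than -0.29 ± 0.28 SE (95% interval -0.91 to 0.34, adjusted p = 0.524).

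The proportions among the mural genes, of Acta2 to Pdgfrb and of Rgs5 to Pecam1 were not shown to differ. In exact permutation tests the difference in log2 ratio was 0.19 for Rgs5 to Pdgfrb (adjusted p = 0.662), -0.09 for Cspg4 to Pdgfrb (adjusted p = 0.865), 0.29 for Acta2 to Pdgfrb (adjusted p = 0.571) and -0.41 for Rgs5 to the endothelial marker Pecam1 (adjusted p = 0.571).

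The levels of the 10 genes spanned a wide range. By mean FPKM over 10 libraries, Acta2 stood at 873, followed by Pdgfrb at 42.9, Smtn at 25.4, Cnn1 at 23.4, Rgs5 at 14.6, Tagln at 4.93, Gucy1a1 at 3.36, Cspg4 at 3.29, Gucy1b1 at 1.61 and Myh11 at 0.926. Acta2 was thus 942-fold above Myh11. Which cells carried the Acta2 or the Myh11 RNA was not tested, so the contractile genes need not mark smooth muscle cells here. In all 10 libraries Acta2 lay above Pdgfrb, Pdgfrb above Smtn, and Rgs5 above Tagln. The place of Tagln is uncertain, for the exon overlap given above. Neighbours whose order turned between libraries were Smtn and Cnn1 (6 of 10 in the order given), Cnn1 and Rgs5 (6), Tagln and Gucy1a1 (6), Gucy1a1 and Cspg4 (4), Cspg4 and Gucy1b1 (8) and Gucy1b1 and Myh11 (6). By group, Gucy1a1 averaged 1.35 FPKM in the libraries labelled IL6 shRNA1 and 5.37 FPKM in control libraries. Gucy1b1 averaged 0.832 FPKM under IL6 shRNA1 and 2.39 FPKM under control shRNA, and Myh11 averaged 1.23 FPKM under IL6 shRNA1 and 0.617 FPKM under control shRNA, so the order of Myh11 and Gucy1b1 was opposite in the 2 groups.

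Across the 10 libraries with group means removed, 2 of the 45 pairs of genes correlated after adjustment of the p of r. Acta2 and Cnn1 went together (Pearson r = 0.882, exact permutation p = 0.00125, adjusted p = 0.0344; Spearman rho = 0.891, exact p = 0.00111, adjusted p = 0.05), and r was 0.834 without IL6 shRNA1 library 5 and control library 4. Acta2 and Rgs5 went in opposite directions (r = -0.888, exact p = 0.00153, adjusted p = 0.0344; rho = -0.867, exact p = 0.00694, adjusted p = 0.0781), with r = -0.797 without the same libraries. The contractile gene with the highest level and a pericyte gene thus varied oppositely among libraries of one label. The share of all pairs of tested genes with so large an r was not computed. Genes outside the 10 reached an r of 0.972 with Acta2 and 0.963 with Rgs5. These correlations are therefore not shown to be particular to these genes. Gucy1a1 and Gucy1b1 did not pass (r = 0.655, exact p = 0.066, adjusted p = 0.224; rho = 0.503, exact p = 0.17, adjusted p = 0.405), and r was 0.240 without IL6 shRNA1 library 1 and control library 5. Next to the threshold lay Cnn1 with Gucy1a1 (r = -0.773, exact p = 0.00347, adjusted p = 0.0521; rho = -0.842, exact p = 0.00479, adjusted p = 0.0718). Pdgfrb with Gucy1a1 followed (r = 0.754, exact p = 0.00514, adjusted p = 0.0578; rho = 0.794, exact p = 0.0109, adjusted p = 0.0981).

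**Figure D3:**
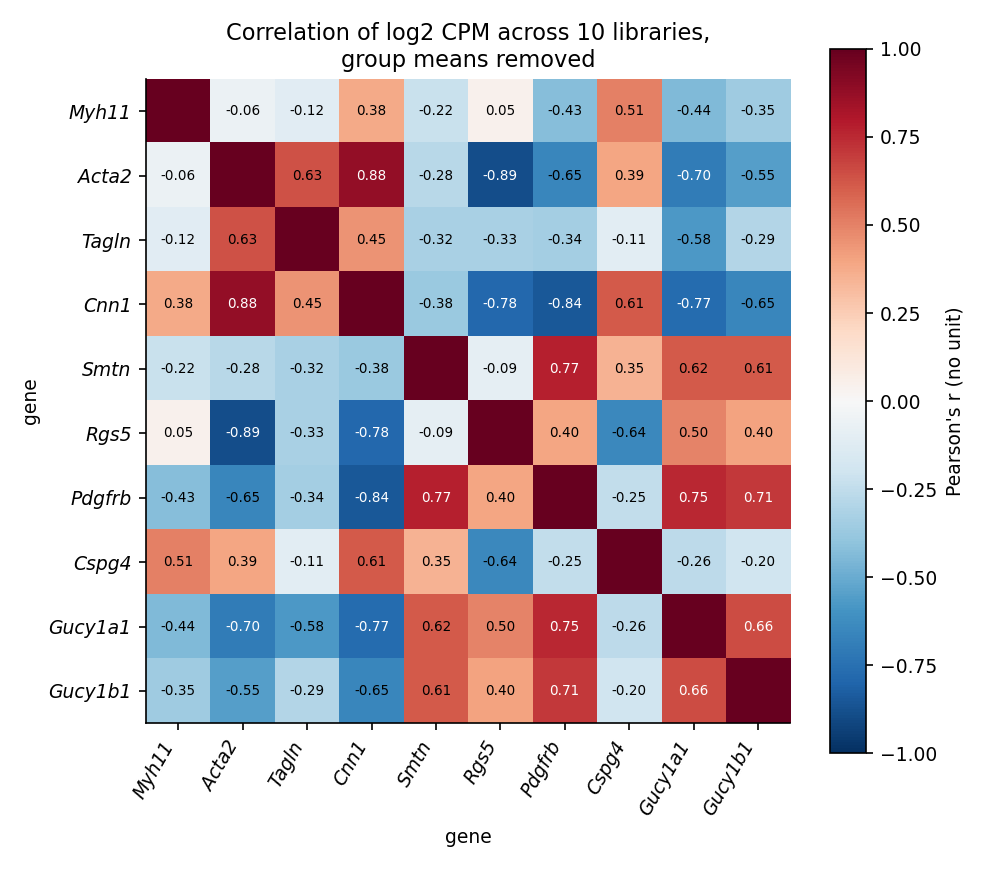
Pearson r between each pair of the 10 genes over 10 libraries, computed on log2 CPM with group means removed. Acta2 with Cnn1 at 0.882 and Acta2 with Rgs5 at -0.888 are the pairs with an adjusted p of 0.0344; Gucy1a1 with Gucy1b1 is at 0.655.

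The genes whose pattern was most like Gucy1a1, by r over the 10 libraries with group means removed, were Patj (0.995), Zfp260 (0.984), Tcf12 (0.982), Dzank1 (0.981) and Thsd7a (0.98), none of which was called between the groups. For Rgs5 they were Poc1b, Scamp2, Map3k8, Id4 and Rnase4 (0.963 to 0.944), and for Acta2 they were Dph2, Nop2, Stip1, Zfp622 and Impdh2 (0.972 to 0.968). They were picked from the 15064 tested genes for the highest r, over libraries of shared depth and composition, and are a description.

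Other genes of the same cells and pathways were read from 4 lists. In the contractile apparatus of smooth muscle, 1 of 20 was higher, 0 were lower and 19 were not called, beside 5.62% called higher over all genes tested. The median log2 fold change of the list was 0.13 (2 were called without IL6 shRNA1 library 1 and by DESeq2). The one called, Csrp1, a LIM protein of actin filaments, also had the highest mean FPKM of the list (220), though not the highest CPM, with 490 ± 42.6 CPM under the IL6 shRNA1 label and 370 ± 22.4 CPM under the control label (log2 fold change 0.41 ± 0.07 SE, adjusted p = 0.0086). It lies on chromosome 1, where the tested genes had a median log2 fold change of 0.32 and 29.2% were called higher. The part of this in the Csrp1 value was not tested. Des, the desmin of smooth and skeletal muscle, had 290 ± 203 CPM in IL6 shRNA1 libraries and 71.3 ± 72.1 CPM in control libraries and did not pass (adjusted p = 0.17). Among SRF and myocardin factors, 0 of 6 tested genes were called by edgeR (1 at an unadjusted p under 0.05; DESeq2 and limma voom also called 0), with a median of -0.05. Srf had 94.6 CPM in the libraries labelled IL6 shRNA1 and 97.6 CPM in control libraries (adjusted p = 0.825). Myocd, the myocardin gene, lay below the filter at 0.439 CPM in IL6 shRNA1 libraries and 0.824 CPM in control libraries. Foxo4 was listed at 0 in all libraries.

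In the list of pericyte and mural genes, 1 of 17 was higher, 4 were lower and 12 were not called, beside 11.8% called over all genes, with a median log2 fold change of -0.07. Of the 17 fold changes, 7 were positive and 10 negative. The largest was that of Vtn, which was not called (log2 fold change 2.42 ± 0.75 SE, adjusted p = 0.0609). Vtn had 2.74 ± 2.42 CPM under IL6 shRNA1 against 0.508 ± 0.366 CPM under control shRNA. Notch3, the Notch receptor of mural cells, had 26.8, 22.0, 16.6, 26.6 and 32.1 CPM in IL6 shRNA1 libraries 1 to 5. It had 44.8, 59.6, 37.4, 53.2 and 60.1 CPM in control libraries 1 to 5, without overlap (log2 fold change -1.04 ± 0.18 SE, adjusted p = 0.0075). Heyl, a transcriptional target of Notch signalling, averaged 21.8 ± 6.90 CPM in IL6 shRNA1 libraries and 36.3 ± 4.71 CPM in control libraries (-0.74 ± 0.18 SE, adjusted p = 0.0281). Angpt1, the angiopoietin that mural cells supply to endothelium, averaged 40.5 ± 4.80 CPM under IL6 shRNA1 and 65.01 ± 9.75 CPM under control shRNA, without overlap (-0.68 ± 0.12 SE, adjusted p = 0.0061). Groups without overlap were found for 3 of the 17 genes (Notch3 and Angpt1 with IL6 shRNA1 below, Mcam with it above), beside 10.9% of all genes tested (6.13% below, 4.81% above). Ndufa4l2 was lower at 38.9 ± 8.60 CPM under IL6 shRNA1 against 74.4 ± 24.7 CPM under control shRNA (-0.94 ± 0.22 SE, adjusted p = 0.0261). Mcam, an adhesion molecule of mural and endothelial cells, was higher at 69.9 ± 6.97 CPM under IL6 shRNA1 against 48.0 ± 9.97 CPM under control shRNA (0.54 ± 0.14 SE, adjusted p = 0.0335). The gene with the highest mean FPKM of the list, Anpep, was not called at 227 CPM under IL6 shRNA1 against 353 CPM under control shRNA (adjusted p = 0.0894).

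Without IL6 shRNA1 library 5 and control libraries 2 and 5 together, 1 of the 17 was called, Notch3 (log2 fold change -0.97, adjusted p = 0.0444). The count of 5 was 2 without IL6 shRNA1 library 2, 3 or 5 or control library 2 alone, 3 without IL6 shRNA1 library 4, 2 without a filter on low counts, and 7 with DESeq2. Every call of the list was lost with a leukocyte score as a covariate. The calls of Notch3 and Angpt1 held without any single library (adjusted p from 0.00841 to 0.0269 and from 0.00614 to 0.0183). Those of Ndufa4l2 and Mcam were lost without IL6 shRNA1 library 2, 3, 4 or 5 or control library 2 (highest adjusted p 0.065 and 0.0791), and that of Heyl without IL6 shRNA1 library 2, 3 or 5 or control library 2 or 5 (highest adjusted p 0.0732). Fibroblasts also express several of these genes. Of 12 fibroblast markers, 2 were lower and 10 were not called, beside 6.16% called lower over all genes tested. Of the 12 fold changes, 3 were positive and 9 negative, with a median log2 fold change of -0.13. The lower were Lum at 441 CPM under IL6 shRNA1 against 860 CPM under control shRNA (adjusted p = 0.0096) and Dcn at 511 CPM under IL6 shRNA1 against 783 CPM under control shRNA (adjusted p = 0.0166). Without IL6 shRNA1 library 5 and control libraries 2 and 5, the adjusted p was 0.0946 for Lum and 0.057 for Dcn, and DESeq2 called 4 of the 12 over all libraries. The summed fibroblast markers ranged from 50440 to 95860 CPM in the libraries labelled IL6 shRNA1 and from 51110 to 115900 CPM in control libraries. Their part in the mural results was not tested.

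The nitric oxide and cGMP list holds the genes upstream and downstream of the cyclase. Of its 16 tested genes 1 was called, in the lower direction, beside 6.16% called lower over all genes tested. The other 15 did not pass (0 genes were higher), and the median log2 fold change of the 16 tested was 0.11. DESeq2 called 4 and limma voom 2 of them, and edgeR called 5 without IL6 shRNA1 library 1, 3 without control library 4, and 0 without IL6 shRNA1 library 5 or control library 2, 3 or 5. Nos1, the neuronal nitric oxide synthase, was the one called, at 19.6, 22.5, 16.1, 20.4 and 15.8 CPM in IL6 shRNA1 libraries 1 to 5. It had 21.9, 29.0, 26.4, 24.6 and 27.7 CPM in control libraries 1 to 5 (log2 fold change -0.46 ± 0.12 SE, adjusted p = 0.0302). The groups overlapped slightly, and the call was lost without IL6 shRNA1 library 3 or 5 or control library 2, 3 or 5 (highest adjusted p 0.0767). Gucy1a2, the other alpha subunit, was low at 1.45 CPM under IL6 shRNA1 against 1.61 CPM under control shRNA (adjusted p = 0.858), and Gucy1b2, the other beta subunit, lay below the filter. The cGMP-dependent kinases Prkg1 and Prkg2 had positive fold changes that did not pass. Prkg1 had 7.79 ± 6.15 CPM under IL6 shRNA1 against 3.01 ± 0.80 CPM under control shRNA without overlap (log2 fold change 1.36 ± 0.42 SE, adjusted p = 0.0569). Prkg1 was highest in IL6 shRNA1 library 5 at 18.8 CPM, with the others of its group at 4.70 to 5.29 CPM. Prkg2 had 33.3 CPM under IL6 shRNA1 against 18.95 CPM under control shRNA (adjusted p = 0.0638). The phosphodiesterase Pde5a, which breaks cGMP down, had 19.1 CPM under IL6 shRNA1 against 17.8 CPM under control shRNA (adjusted p = 0.714). Vasp, a substrate of the kinase and the gene of the list with the highest mean FPKM, had 262 CPM under IL6 shRNA1 against 229 CPM under control shRNA (adjusted p = 0.193). Gucy1a2, Gucy1b2, Prkg1, Prkg2, Pde5a, Des, Myocd, Foxo4 and Vtn were picked for naming after their values were seen.

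**Figure D4:**
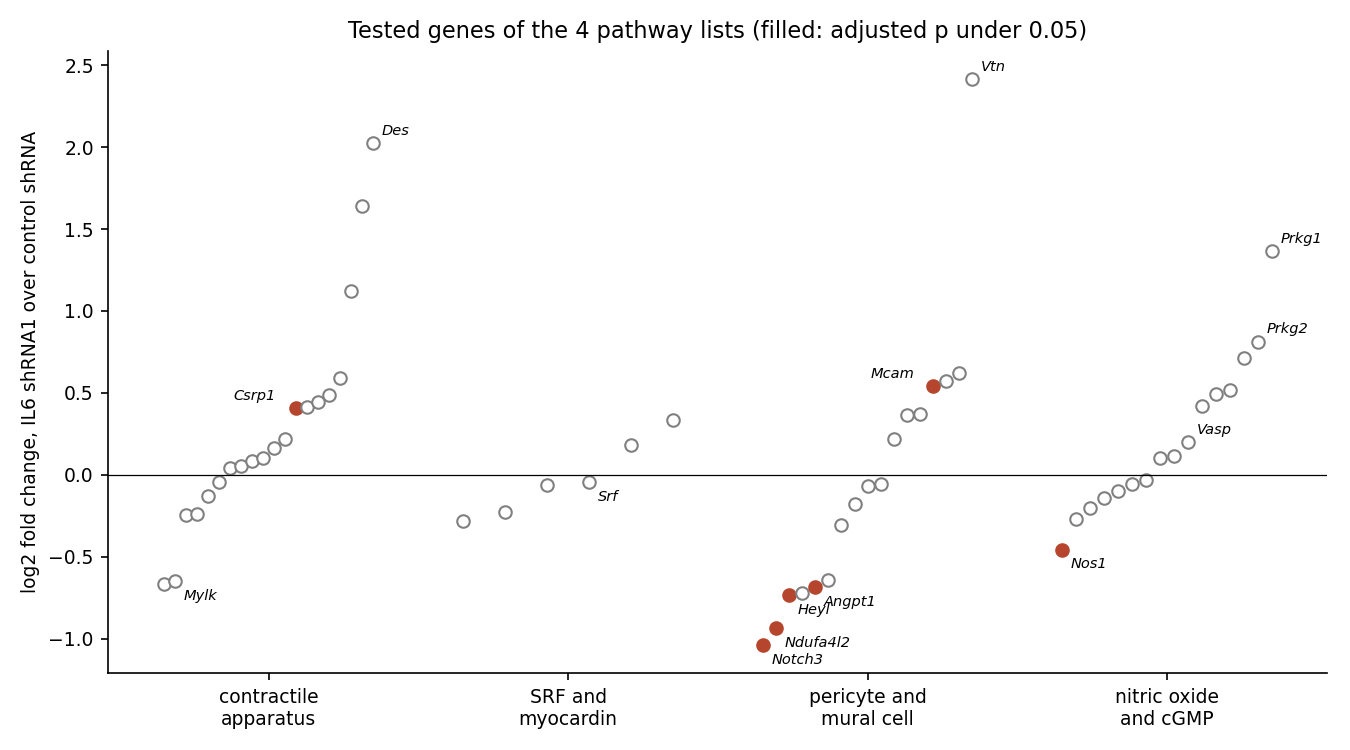
Log2 fold change, libraries labelled IL6 shRNA1 over control shRNA libraries, of each tested gene in the 4 lists, ordered by value within a list; filled points had an adjusted p under 0.05. Called genes are Csrp1 above 0 in the first list, Notch3, Ndufa4l2, Heyl and Angpt1 below 0 and Mcam above 0 in the third, and Nos1 below 0 in the fourth.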

How the data were processed

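RNA was measured in 10 libraries made with NEBNext Ultra II kits from total RNA, per the labels' protocols. Per the submitters' processing notes the reads were handled with STAR 2.7.0f and featureCounts from Subread 1.6.4, and Trim Galore 0.6.6, FastQC 0.11.9, R 4.0.4 and SAMtools 1.11 are also named, on mm10 (GRCm38). Not given in the sources used here: strand setting, annotation release, handling of multi-mapped reads. The deposited table holds raw read counts per gene, which the authors did not normalize, and FPKM values beside them; the deposited FPKM equal the count over gene length and column total (largest relative deviation 1.8e-07).

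Counts were scaled by TMM factors, filtered with filterByExpr (minimum count 10) and tested with edgeR 4.0.16 (glmQLFit, robust, and glmQLFTest; R 4.3.3), group as the only term, with Benjamini-Hochberg adjustment over all 15064 genes tested. The SE is the log2 fold change over the square root of F. Ratios and correlations used log2 CPM with a prior count of 1 and exact permutation. Depth was similar in all libraries, and Gucy1b1 and Myh11 had the fewest counts of the 10 genes. Libraries of one group differed by more than sampling noise, so none was counted as a repeat of another. Replicate numbers were checked for pairing and do not pair the samples. Alternatives were RLE, upper-quartile and total scaling, other filters, limma voom 3.58.1, DESeq2 1.42.0, FPKM with pseudocounts 1 and 0.1, a replicate block, a leukocyte score, and leaving out libraries. The test was checked on simulated counts.

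The members, lists and alternatives were chosen with earlier results of these data known. Genes named were the 10 members, Il6, in each list the gene with the highest mean FPKM and up to 6 called genes, the 5 nearest patterns of Gucy1a1, Rgs5 and Acta2, and neighbours of the guanylate cyclase genes; not all of these are printed. Promoter sequences are RefSeq's on GRCm38.p6 and were kept for 7 of 10 members, with no entry found by symbol for Myh11 or Tagln. Any promoter entry on chromosome 18, where Pdgfrb lies, was left out. Exon overlaps were read from GENCODE M21.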

Additional observations from a re-analysis of the deposited data

Results flagged for a closer look

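In each group of 5 libraries, the highest and the lowest value of each gene and ratio were compared with the others by Dixon's gap test, which chance alone passes in about 1 of 20 groups. Of 36 group values examined, 4 passed. Gucy1a1 in IL6 shRNA1 library 1 was 21.5 CPM, with the other libraries of its group at 4.67 to 9.09 CPM. Cspg4 in control library 4 was 78.4 CPM, with the others at 30.0 to 38.4 CPM. The log2 ratio of Gucy1b1 to Pdgfrb in control library 5 was -5.17, with the others at -4.63 to -4.46, and it was in this library that Pdgfrb stood highest. The log2 ratio of Rgs5 to Pecam1 in IL6 shRNA1 library 1 was 0.86, with the others at -0.12 to 0.02. No cause of these values was tested.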

How the results depend on the processing

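Other scalings (RLE, upper quartile, totals), a filter of 1 CPM, non-robust dispersion, DESeq2, limma voom and the deposited FPKM with pseudocounts 1 or 0.1 each kept the direction and call of Myh11, Tagln, Gucy1a1 and Gucy1b1. The count of all genes called was 1775, and 3025 with DESeq2; that of the 123 pathway and marker genes was 17, and 41 with DESeq2, 10 with totals only and 6 without a filter on low counts, where Gucy1a1 was -1.98 (adjusted p = 0.0698). Replicate numbers do not pair the samples: same-numbered libraries had correlations of deviations from -0.274 to 0.266, and 1 of 5 correlated best with its own number. With a replicate block, Myh11 was 1.00 (adjusted p = 0.0588), Tagln 0.65 (0.0751), 2 members, 755 genes and 7 pathway and marker genes were called, and the differences in log2 ratio stayed at -1.99, -1.39 and 0.85 with a sign-flip adjusted p of 0.167 each, a design whose smallest p cannot pass. Without IL6 shRNA1 library 5 and control libraries 2 and 5, Myh11 was 0.67, Tagln 0.71, Gucy1a1 -1.44, Rgs5 -0.062 and Pdgfrb 0.13; 1 member, 212 genes and 2 pathway and marker genes were called; the ratios Gucy1a1 to Pdgfrb, Gucy1b1 to Pdgfrb, Myh11 to Acta2, Rgs5 to Pdgfrb and Rgs5 to Pecam1 differed by -1.83, -1.46, 0.50, -0.074 and 0.0099. With the leukocyte score, Myh11 was 0.66, Tagln 0.68, Gucy1a1 -1.19, Gucy1b1 -1.03, Smtn 0.10, Rgs5 -0.038, Pdgfrb 0.22 and Il6 -0.61, with 0 members, 62 genes and 0 pathway and marker genes called. At an adjusted p under 0.01, 1 member and 381 genes were called.

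Leaving out single libraries gave 864 to 2774 genes called, over 1.5 times from 1775 without IL6 shRNA1 library 1 (2774), 2 (869), 3 (1024), 4 (1154) or 5 (989) or control library 2 (875) or 5 (864); 2 to 4 members; and 5 to 34 pathway and marker genes. Ranges of the log2 fold change were 0.88 to 1.11 for Myh11, 0.09 to 0.23 for Acta2, 0.56 to 0.79 for Tagln, 0.26 to 0.76 for Cnn1, -0.12 to -0.03 for Smtn, -0.17 to 0.20 for Rgs5, -0.26 to 0.07 for Pdgfrb, -0.40 to 0.04 for Cspg4, -2.51 to -1.79 for Gucy1a1 and -1.68 to -1.39 for Gucy1b1. Rgs5 was -0.17, -0.018 and -0.13 without IL6 shRNA1 library 5, control library 3 and control library 4, Pdgfrb 0.066 without control library 5, and Cspg4 0.045 without control library 4. Ranges of the difference in log2 ratio were -0.81 to -0.42 for Gucy1a1 to Gucy1b1, -2.26 to -1.82 for Gucy1a1 to Pdgfrb, -1.51 to -1.27 for Gucy1b1 to Pdgfrb, 0.04 to 0.41 for Rgs5 to Pdgfrb, -0.38 to 0.22 for Cspg4 to Pdgfrb (0.019 without IL6 shRNA1 library 5), 0.05 to 0.42 for Acta2 to Pdgfrb, 0.67 to 1.02 for Myh11 to Acta2 and -0.66 to -0.26 for Rgs5 to Pecam1. The cause of these shifts was not tested. Counts of 43 to 250 for Gucy1b1 and 54 to 241 for Myh11 limit their precision.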
